A study of Mus musculus with 6 samples.

Results

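The endothelin system was described here by 6 genes, picked by symbol out of the 55416 genes in the count table: the ligand genes *Edn1* and *Edn3*, the receptor genes *Ednra* and *Ednrb*, and the processing enzyme genes *Ece1* and *Ece2*. These genes were selected with the genotype comparison of the same libraries already known, so their differences between genotypes are given as a description and not as a test. All 6 had counts and passed the filter of at least 10 counts in at least 2 libraries, which left 16296 genes.

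The libraries were made from GFP-positive ECs sorted from the ventricles of E15.5 mouse hearts, with 3 libraries from ControlΔEC embryos and 3 from Wt1KOΔEC embryos. ControlΔEC embryos were Pdgfb-CreERT2/+, Wt1+/+ and R26-mTmG/+, while Wt1KOΔEC embryos were Pdgfb-CreERT2/+, Wt1 LoxP/LoxP and R26-mTmG/+. Both genotypes therefore carried the Cre and the reporter, and embryos of both were exposed to tamoxifen given to the dams by gavage at 75 mg/kg on E11.5 through E13.5. The Cre acts where *Pdgfb* is active, and the reporter switches to membrane GFP in a cell in which the Cre has recombined, so the sort selects for recombination and not for an EC surface protein. The labels call the libraries biological replicates without naming the embryo or litter of each one, so the p-values measure the spread between these libraries.

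Endothelins are short peptides that ECs secrete and that act on neighbouring cells. The precursor of endothelin-1, encoded by *Edn1*, is first cut by furin-type convertases and then by the membrane metalloproteases encoded by *Ece1* and *Ece2* to give the active peptide. The receptor encoded by *Ednra* is known mainly from smooth muscle and mural cells, where it drives contraction through Gq and calcium release, while the receptor encoded by *Ednrb* is known from ECs, where it clears endothelin-1 and couples to nitric oxide and prostacyclin, and from neural crest and melanocyte precursors, where *Edn3* is its ligand.

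The promoter windows of *Ednrb*, *Edn1* and *Ednra* are printed because these are the called receptor, the abundant ligand and the low receptor of the results that follow. Each window has 250 bases before and 50 bases after a start site of RefSeq (GRCm38.p6 table), in the direction of transcription, and was placed on GRCm39 by exact match, at chr14:104081088-104081387 on the minus strand for *Ednrb*, chr13:42454702-42455001 on the plus strand for *Edn1* and chr8:78451032-78451331 on the minus strand for *Ednra*. Capitals mark every match to the searched motifs on either strand.
Ednrb: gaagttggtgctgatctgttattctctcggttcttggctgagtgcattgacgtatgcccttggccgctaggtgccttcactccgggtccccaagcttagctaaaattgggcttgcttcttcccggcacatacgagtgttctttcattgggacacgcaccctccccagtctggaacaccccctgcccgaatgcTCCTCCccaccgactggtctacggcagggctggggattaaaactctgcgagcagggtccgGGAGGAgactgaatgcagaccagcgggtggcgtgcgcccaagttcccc
Edn1: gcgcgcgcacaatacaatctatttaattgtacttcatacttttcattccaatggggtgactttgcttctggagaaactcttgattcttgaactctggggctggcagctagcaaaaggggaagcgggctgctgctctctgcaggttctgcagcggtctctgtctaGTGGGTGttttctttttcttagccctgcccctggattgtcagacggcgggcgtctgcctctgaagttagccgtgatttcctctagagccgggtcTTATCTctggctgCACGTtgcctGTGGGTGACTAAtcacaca
Ednra: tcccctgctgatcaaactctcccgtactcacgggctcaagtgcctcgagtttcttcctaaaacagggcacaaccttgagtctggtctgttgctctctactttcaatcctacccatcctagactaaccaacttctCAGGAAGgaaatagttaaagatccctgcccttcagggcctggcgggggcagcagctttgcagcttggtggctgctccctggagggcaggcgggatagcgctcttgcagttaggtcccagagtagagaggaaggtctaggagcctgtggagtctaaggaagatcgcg

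The motifs were searched on both strands in 9 windows of the 6 genes and in the 32851 windows of the whole promoter table. The EGR/WT1 core GCGGGGGCG was in none of the 9 windows and in 2.91% of all windows. The looser zinc finger motif GTGGGNG was in windows of *Ece1*, *Ece2*, *Edn1* and *Edn3* and in 31.6% of all windows. TCCTCC was found in the *Ednrb* window alone among the members, once 58 to 53 bases before the start and once on the other strand 3 to 8 bases after it, and in 34.5% of all windows. The *Edn1* window held GTGGGNG 86 to 80 bases before the start and again at bases 32 to 38 after it, where it overlaps an AP-1 motif, TGACTNA, at bases 37 to 43 (13.9% of all windows). The same window held the GATA motif AGATAA on the other strand at bases 9 to 14 (11.2% of all windows) and the hypoxia response core ACGTG on the other strand at bases 22 to 26 (19.6% of all windows). The only match in the *Ednra* window was the ETS motif CAGGAAG, 116 to 110 bases before the start, which was in 13.3% of all windows. A match is a description of letters in a window and says nothing of binding, and these short motifs are common in promoters.

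The libraries held between 26037324 and 44779020 counts, and 3 counts, the limit that a count of 0 allows, correspond to between 0.0608 and 0.119 CPM (counts scaled to library size with TMM factors) for counting error only. *Wt1*, the targeted gene, was at 145, 109.6 and 149 CPM in ControlΔEC replicates 1 to 3 and at 13.999, 18.4 and 21.3 CPM in Wt1KOΔEC replicates 1 to 3, as the labels say. Endothelial markers were high in every library, with a summed level of 10 genes between 5691 and 6867 CPM and overlapping genotypes, and *Pecam1*, an EC junction protein gene, was at 1635 ± 235 and 1575 ± 150 CPM (SD, n = 3). Measures of library make-up separated the genotypes. The share of counts in the ribosomal RNA gene *Rn18s* was 13.2% to 15.3% in ControlΔEC and 21.1% to 26.5% in Wt1KOΔEC, and the mitochondrial share was 5.21% to 6.61% and 1.68% to 4.57%. Their part in the results was not tested. A fit without *Rn18s* and the mitochondrial genes gave *Ednrb* a log2 fold change of 1.23, and one scaled by library size only gave 1.08. Leaving these genes out does not change the counts of the other genes, so that fit cannot test library make-up. The library names begin with different letters in the 2 genotypes, and a batch that followed genotype cannot be told apart from it.

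Across all genes, a gene was called when its edgeR quasi-likelihood adjusted p-value was below 0.05 and its log2 fold change exceeded 0.58 in size. That held for 12 genes, or 0.0736% of those tested, with 8 higher (0.0491%) and 4 lower (0.0245%) in Wt1KOΔEC. Of the 6 endothelin genes, 1 was called, *Ednrb*. In 3 of the 6, *Edn1*, *Ednrb* and *Ece1*, every Wt1KOΔEC library lay above every ControlΔEC library in CPM. Over all genes 19.3% had separate genotypes in CPM, 10.3% with Wt1KOΔEC higher and 8.97% with it lower. As a share of total counts, without the TMM factors, *Ednrb* stayed separate, while *Edn1* and *Ece1* overlapped. *Edn3*, *Ednra* and *Ece2* overlapped between the genotypes. The median log2 fold change was 0.45 over the 6 genes and -0.03 over all genes tested. Nothing is read from these counts about the family, since the selection used the same contrast.

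**Figure D1:**
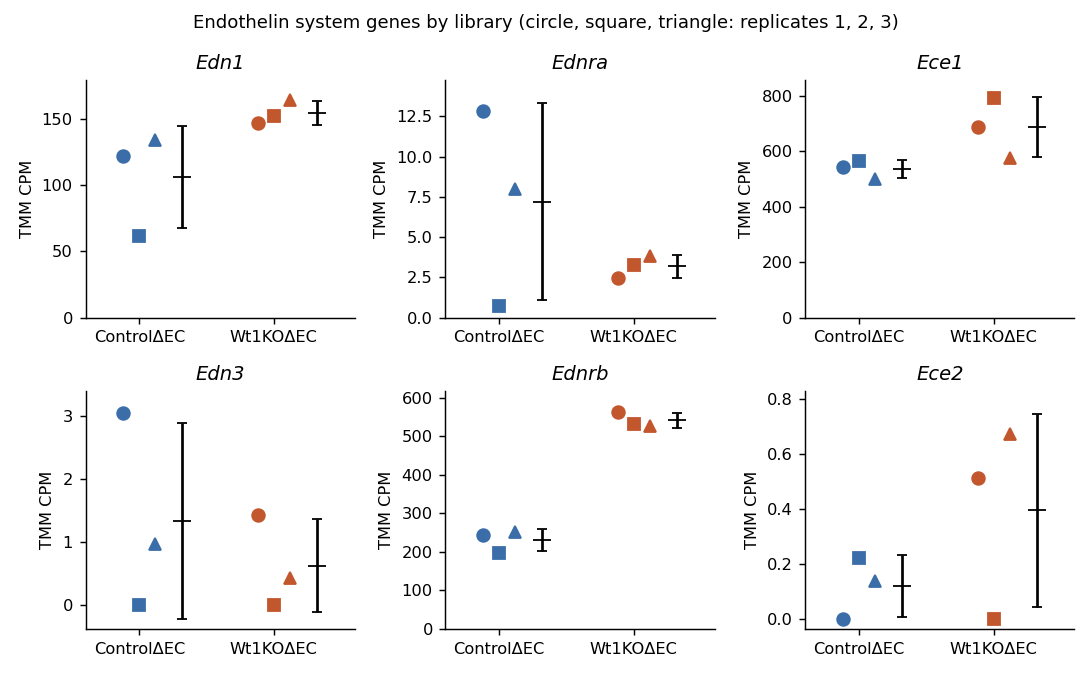
Level of each endothelin system gene in TMM CPM (vertical axes, linear, each with its own scale), with points for replicates 1, 2 and 3 and black bars for the mean ± SD of 3 libraries. *Ednrb* lies between 198 and 251 CPM in ControlΔEC and between 527 and 564 CPM in Wt1KOΔEC, while *Ednra*, *Edn3* and *Ece2* overlap.

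*Ednrb* (ENSMUSG00000022122, GRCm39 chr14:104052053-104081900, minus strand) was the endothelin gene with the clearest separation. Its counts were 10863, 9752 and 7236 in ControlΔEC replicates 1 to 3 and 22031, 18916 and 13329 in Wt1KOΔEC replicates 1 to 3. In CPM these were 243, 198 and 251 against 564, 531 and 527, so every Wt1KOΔEC library lay above every ControlΔEC library. The means were 230.5 ± 28.7 and 541 ± 20.0 CPM (SD, n = 3), a ratio of 2.35, with a fitted log2 fold change of 1.23 ± 0.15 (SE). The edgeR adjusted p-value of this descriptive contrast was 0.0441 and *Ednrb* was rank 7 of 16296 genes by p-value, with DESeq2 giving an adjusted p-value of 2.26e-14.

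The spread of *Ednrb* within a genotype was lower than that of most genes with a mean of at least 10 CPM. Those genes were not matched to its level. The SD of log2 CPM within genotypes was 0.14, against a median of 0.28 over the 8472 genes with a mean of at least 10 CPM, of which 9.47% had a smaller one. No exon of another gene overlapped *Ednrb* in the GENCODE vM39 annotation, and 0.403% of the 51-base windows of its main transcript, the length of 1 read, occurred in another gene. The call was lost when any of 4 libraries was left out. The edgeR adjusted p-value was 0.114 without ControlΔEC replicate 1, and 0.271, 0.256 and 0.215 without Wt1KOΔEC replicates 1, 2 and 3. The call was also lost in a fit with the replicate number as a block, at an edgeR adjusted p-value of 0.0681. The log2 fold change stayed between 1.13 and 1.298 when any single library was left out.

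**Figure D2:**
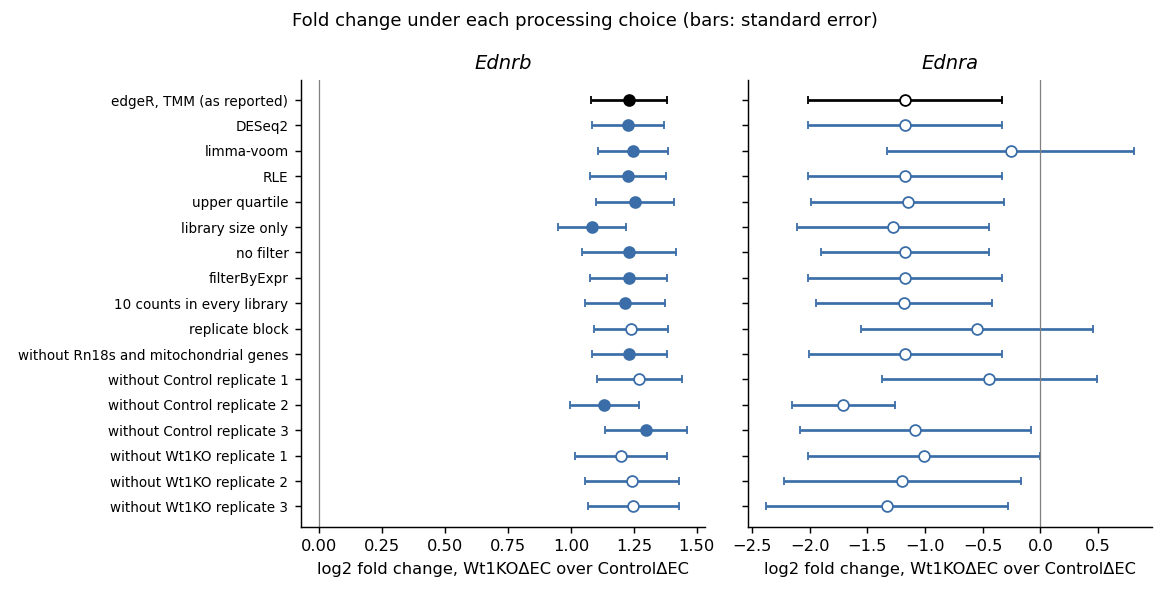
Log2 fold change of *Ednrb* and *Ednra* (horizontal axes, Wt1KOΔEC over ControlΔEC) under each processing choice or with a library left out, with bars for the standard error and filled points for an adjusted p-value under 0.05. *Ednrb* stays between 1.08 and 1.298, while *Ednra* moves from -1.71 to -0.26.

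Genes known from other cells that carry endothelin receptors were examined beside *Ednrb*. The lymphatic endothelial list of 6 genes summed to between 311 and 347 CPM in ControlΔEC and between 409 and 578 CPM in Wt1KOΔEC. All 6 had a positive log2 fold change, as had 7822 of the 16296 genes tested. The edgeR test called none of the 6. *Flt4*, a lymphatic growth factor receptor gene, was the most abundant, at 238 ± 19.4 and 264 ± 38.8 CPM, and its genotypes overlapped. The endocardial list of 7 genes summed to 375 to 476 CPM and 649 to 875 CPM, with *Plvap*, a fenestral diaphragm gene, called at 68.1 ± 12.9 and 338 ± 20.5 CPM. The fibroblast list of 9 genes summed to 1612 to 1891 CPM and 2422 to 3068 CPM, with the collagen gene *Col1a1* called at 114 ± 12.5 and 290.0 ± 40.0 CPM and the most abundant member *Fn1* at 927 ± 101 and 1249.8 ± 409 CPM. The epicardial list of 9 genes summed to 42.6 to 49.2 CPM and 67.7 to 80.5 CPM. Its most abundant gene, *Clu*, was at 30.7 ± 5.18 and 36.5 ± 14.8 CPM and overlapped between the genotypes. DESeq2 called *Upk3b*, at 2.03 ± 1.46 and 9.05 ± 3.43 CPM, and *Msln*, at 0.578 ± 0.674 and 9.79 ± 8.25 CPM, higher. These 4 lists were higher in every Wt1KOΔEC library, as *Ednrb* was. DESeq2 called 2 lymphatic, 2 endocardial, 4 fibroblast and 2 epicardial genes higher and none lower. Over all genes it called 1.66% higher and 2.02% lower. The endocardial separation rested on *Plvap*, since the other 6 genes summed to 325, 293 and 418 CPM in ControlΔEC and to 318, 514 and 371 CPM in Wt1KOΔEC and overlapped. The other 3 lists stayed separate with any 1 gene left out, but in 2 of them only narrowly. Without *Ccl21a* the lymphatic sums were 277, 283.2 and 274 CPM in ControlΔEC and 384, 372 and 283.7 CPM in Wt1KOΔEC. Without *Clu* the epicardial sums were 12.9, 16.5 and 18.0 CPM in ControlΔEC and 56.8, 18.4 and 40.6 CPM in Wt1KOΔEC. The levels of these lists moved with genotype, and their part in the *Ednrb* difference was not tested. In such bulk samples, more cells of a type and more RNA per cell cannot be told apart.

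Neural crest and melanocyte lists were lower in sum in Wt1KOΔEC, with none of their genes called. The genotypes overlapped in the melanocyte sum without *Kit*, and in the neural crest sum without *Fabp7*. The neural crest and Schwann list of 9 genes summed to 7.66 to 9.82 CPM in ControlΔEC and 4.38 to 5.94 CPM in Wt1KOΔEC, with *Foxd3* at 0 in every library, *Sox10* counted only in ControlΔEC replicate 3 and with 4 counts, and *Fabp7* the most abundant. The melanocyte list of 7 genes summed to 313 to 427 CPM and 215 to 294 CPM, of which *Kit*, a receptor gene that other cells also use, made 359 ± 59.5 and 252 ± 37.3 CPM, while *Tyrp1* and *Mlana* were at 0 in every library. *Dct*, a melanin synthesis gene, was at 2.53 CPM in Wt1KOΔEC replicate 2 and at or below the limit of 3 counts in the other libraries. In Wt1KOΔEC replicate 1, where *Ednrb* was at 564 CPM, *Sox10*, *Foxd3*, *Tyrp1* and *Mlana* all had 0 counts.

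*Edn1* (ENSMUSG00000021367, GRCm39 chr13:42446301-42461466, plus strand) encodes the precursor of endothelin-1, the main peptide of ECs. Its counts were 5456, 3054 and 3861 in ControlΔEC and 5748, 5406 and 4150 in Wt1KOΔEC. In CPM these were 122, 61.9 and 134 against 147, 152 and 164. The genotypes did not overlap in CPM, and this separation depended on the TMM factors. As a share of total counts, ControlΔEC replicate 3 was above Wt1KOΔEC replicate 1. A fit scaled by library size only gave a log2 fold change of 0.41. In CPM, ControlΔEC replicate 2 was far below the other libraries of its genotype, and the Wt1KOΔEC libraries were close to each other. The means were 106 ± 38.6 and 154 ± 8.84 CPM (SD, n = 3), the log2 fold change was 0.54 ± 0.26 (SE) and the edgeR adjusted p-value was 0.425. Without ControlΔEC replicate 2 the log2 fold change was 0.27, and without ControlΔEC replicate 3 it was 0.75. SMART-seq2 keeps no strand, and 581 bases of *Edn1* exons overlap an antisense gene, so reads of the pair cannot be told apart there.

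*Edn3* (ENSMUSG00000027524, GRCm39 chr2:174602088-174625835, plus strand), the ligand known for *Ednrb* in neural crest, was near the lower limit of detection. It had 136, 0 and 28 counts in ControlΔEC and 56, 0 and 11 counts in Wt1KOΔEC, so replicate 2 was at 0 in both genotypes and replicate 1 was highest in both. *Edn1* made up at least 98.5% of the ligand level per kilobase in every library. The fitted log2 fold change of *Edn3* was -1.09 ± 1.98 (SE) with an edgeR adjusted p-value of 0.895, and it was 0.37 without ControlΔEC replicate 1, so these libraries give no direction. *Edn2*, the remaining endothelin gene, had 9 counts in ControlΔEC replicate 1 and 0 in the other 5 libraries and was not tested.

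*Ednra* (ENSMUSG00000031616, GRCm39 chr8:78386590-78451552, minus strand) had 575, 34 and 231 counts in ControlΔEC and 95, 117 and 97 counts in Wt1KOΔEC. In CPM these were 12.9, 0.689 and 8.01 against 2.43, 3.29 and 3.84. The highest and the lowest of the 6 libraries were both ControlΔEC, and the 3 Wt1KOΔEC libraries lay between them. The means were 7.18 ± 6.12 and 3.19 ± 0.709 CPM (SD, n = 3), with a log2 fold change of -1.17 ± 0.84 (SE) and an edgeR adjusted p-value of 0.631. The value was -0.44 without ControlΔEC replicate 1 and -1.71 without ControlΔEC replicate 2, and limma-voom gave -0.26. An antisense gene shares 2452 exonic bases with *Ednra*.

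Mural genes were compared with *Ednra* because pericytes and smooth muscle cells are known to carry this receptor. The mural list of 11 genes summed to 610, 477 and 646 CPM in ControlΔEC and to 394, 349 and 333 CPM in Wt1KOΔEC, without overlap. Of its 10 tested genes, 8 had a negative and 2 a positive log2 fold change and none was called by edgeR. At an unadjusted p-value under 0.05, 4 were lower, against 7.12% of all genes. DESeq2 called 3 lower, *Rgs5* and the pericyte surface genes *Pdgfrb* and *Cspg4*, against 2.02% of all genes. *Rgs5*, a pericyte regulator of G-protein signalling, was at 165, 26.8 and 164 CPM in ControlΔEC and at 25.4, 17.9 and 19.4 CPM in Wt1KOΔEC. ControlΔEC replicate 2 was the low library of its genotype in both *Ednra* and *Rgs5*. Without *Rgs5* the remaining 10 mural genes summed to 444, 451 and 482 CPM in ControlΔEC and to 368, 332 and 313 CPM in Wt1KOΔEC, so the genotypes were still separate but ControlΔEC replicate 2 was not low. *Abcc9*, a potassium channel subunit gene, was the most abundant mural gene and was highest in that library. It was at 233, 289 and 268 CPM in ControlΔEC and 238, 178 and 176 CPM in Wt1KOΔEC. With *Abcc9* left out instead of *Rgs5*, the sums were 377, 188 and 378 CPM in ControlΔEC and 156, 172 and 156 CPM in Wt1KOΔEC. ControlΔEC replicate 2 was then the low library of its genotype, so its place in the sum without *Rgs5* rested on *Abcc9*. *Myh11*, a smooth muscle myosin gene, had 45 counts in ControlΔEC replicate 3, 6 in Wt1KOΔEC replicate 2 and 0 elsewhere. The part of mural RNA in the *Ednra* values was not tested.

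**Figure D3:**
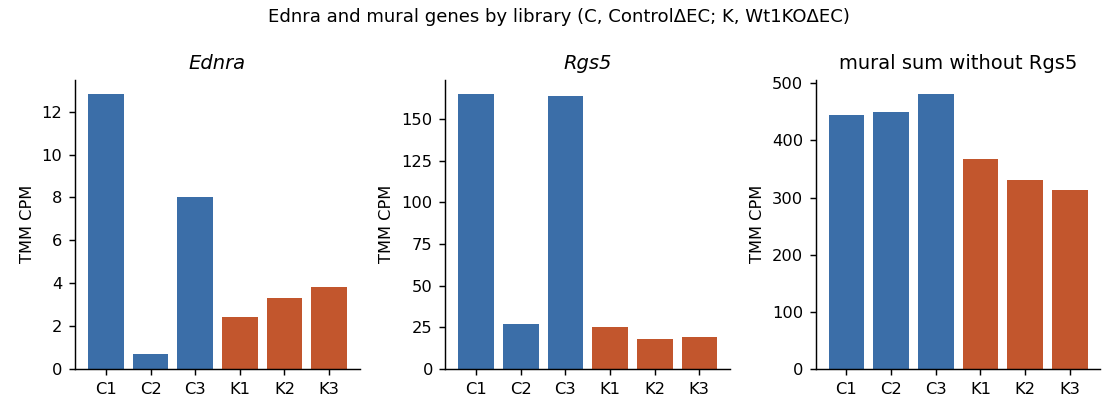
*Ednra*, *Rgs5* and the summed level of the mural genes other than *Rgs5* in TMM CPM (vertical axes from 0) in each library. ControlΔEC replicate 2 is at 0.689 CPM for *Ednra* and 26.8 CPM for *Rgs5*, below the other ControlΔEC libraries, but at 451 CPM for the sum it lies between them. With *Abcc9* left out in place of *Rgs5* (not drawn), the sum in that library is 188 CPM, below the other ControlΔEC libraries.

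*Ece1* (ENSMUSG00000057530, GRCm39 chr4:137589530-137692542, plus strand), the main endothelin-converting enzyme gene, had the highest level of the 6 in CPM. Its counts were 24359, 27836 and 14409 in ControlΔEC and 26874, 28232 and 14563 in Wt1KOΔEC. In CPM these were 544, 564 and 499.8 against 688, 793 and 576. The genotypes did not overlap, with the lowest Wt1KOΔEC library just above the highest ControlΔEC library. This separation depended on the TMM factors. As a share of total counts, ControlΔEC replicate 2 was above Wt1KOΔEC replicate 3, and a fit scaled by library size only gave a log2 fold change of 0.20. The means were 536 ± 33.1 and 686 ± 108 CPM (SD, n = 3), the log2 fold change was 0.35 ± 0.16 (SE) and the edgeR adjusted p-value was 0.387.

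*Ece2* (ENSMUSG00000022842, GRCm39 chr16:20448332-20465273, plus strand), known mainly from neurons, had 0, 11 and 4 counts in ControlΔEC and 20, 0 and 17 counts in Wt1KOΔEC. Both genotypes held a library at 0, the fitted log2 fold change was 1.68 ± 2.08 (SE) and the edgeR adjusted p-value was 0.826. Its values are uncertain, since 86.1% of the 51-base windows of its main transcript also occur in a readthrough transcript with its neighbour.

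Levels between genes were compared per kilobase of exonic length. In ControlΔEC the order was *Ece1* at 80.6 ± 4.97, *Ednrb* at 51.3 ± 6.38 and *Edn1* at 38.6 ± 14.1 CPM per kb, placing them above 98.1%, 96.9% and 95.9% of tested genes. *Ece1* was above *Ednrb* in each ControlΔEC library, and *Ednrb* was above *Edn1* in each, although their means differed by less than the SD of *Edn1*. *Ednra*, *Edn3* and *Ece2* followed, above 34.3%, 20.2% and 1.66% of tested genes. In Wt1KOΔEC, *Ednrb* was at 120 ± 4.45, *Ece1* at 103 ± 16.3 and *Edn1* at 56.3 ± 3.23 CPM per kb. The *Ece1* to *Ednrb* ratio was 1.52, 1.93 and 1.35 in ControlΔEC and 0.824, 1.01 and 0.738 in Wt1KOΔEC, without overlap. This order in Wt1KOΔEC depends on the gene length used: with the canonical transcript length, chosen after seeing the data, *Ece1* was at 142 ± 22.4 and *Ednrb* at 134 ± 4.96 CPM per kb.

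The ligand to receptor ratio was lower in Wt1KOΔEC. *Edn1* over *Ednrb* per kilobase was 0.824, 0.513 and 0.875 in ControlΔEC and 0.428, 0.469 and 0.511 in Wt1KOΔEC, with ControlΔEC replicate 2 just above the highest Wt1KOΔEC library. *Ednrb* made up 97.4%, 99.8% and 98.4% of the receptor level per kilobase in ControlΔEC and 99.8%, 99.7% and 99.6% in Wt1KOΔEC, so the genotypes overlapped and the B receptor dominated in all 6 libraries.

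**Figure D4:**
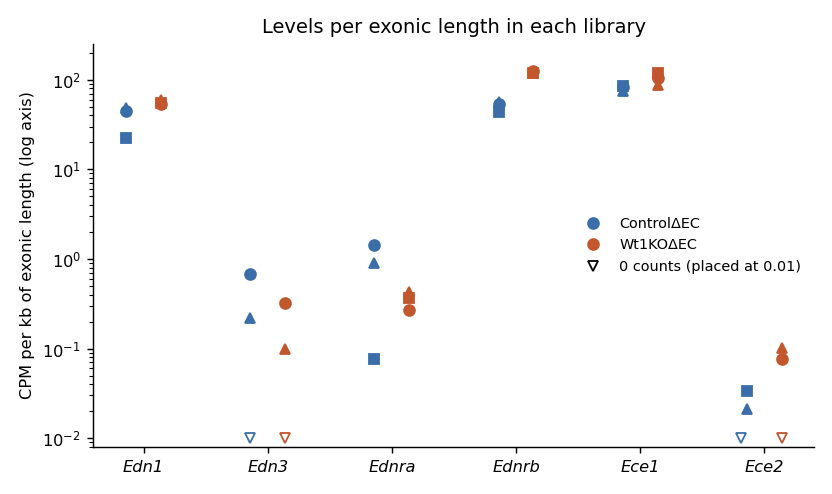
Level of each gene per library in CPM per kilobase of exonic length (vertical axis, log scale), with open triangles at 0.01 for libraries with 0 counts. *Edn1*, *Ednrb* and *Ece1* form an upper group, while *Ednra*, *Edn3* and *Ece2* lie well below it in every library.

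The wider pathway was described with 98 genes in lists drawn from textbook knowledge, of which 86 were tested. The edgeR test called none of them, while 11 were higher and 14 lower at an unadjusted p-value under 0.05 and DESeq2 called 4 higher and 6 lower. Across all genes the unadjusted shares were 5.96% and 7.12%, and DESeq2 called 3.68%, 1.66% higher and 2.02% lower. The median log2 fold change was -0.06.

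No receptor signalling gene was called by edgeR in either direction, while DESeq2 called *Plcb4* (adjusted p = 1.35e-06) and *Rgs5* (adjusted p = 0.0253), both lower in Wt1KOΔEC. Of 21 genes for G proteins, phospholipase C and calcium release, 4 were lower at an unadjusted p-value under 0.05, and the largest fold change was that of *Plcb4*, a phospholipase C gene, at 90.5 ± 11.01 and 41.4 ± 3.46 CPM with a log2 fold change of -1.13 ± 0.17 (SE) and an edgeR adjusted p-value of 0.077. The most abundant, *Gnai3* and *Gnai2*, which encode inhibitory G protein subunits, had log2 fold changes of -0.20 and -0.05. Of 11 desensitisation genes, *Rgs5* had the largest fold change, -2.50 ± 0.57 (SE) with an edgeR adjusted p-value of 0.163, and the G-protein regulators *Rgs3* and *Rgs2* were at -0.07 and 0.15.

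The nitric oxide and prostacyclin list, to which the B receptor couples in ECs, was mixed. Of its 13 tested genes, 3 were higher and 4 lower at an unadjusted p-value under 0.05 and none was called by edgeR. DESeq2 called 1, *Cav1*, lower in Wt1KOΔEC (adjusted p = 0.0217). *Cav1*, which encodes the caveolin that binds nitric oxide synthase, was at 2999 ± 965 and 1783 ± 66.8 CPM, *Hsp90aa1*, a chaperone gene, at 1286 ± 242 and 1624 ± 283 CPM, and *Ptgs2*, a prostanoid synthesis gene, at 13.7 ± 8.29 and 31.3 ± 12.2 CPM. *Nos3*, the endothelial nitric oxide synthase gene, named after its values were seen, was at 592 ± 99.6 and 423 ± 70.5 CPM, with a log2 fold change of -0.49 ± 0.18 (SE) and an edgeR adjusted p-value of 0.310.

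**Figure D5:**
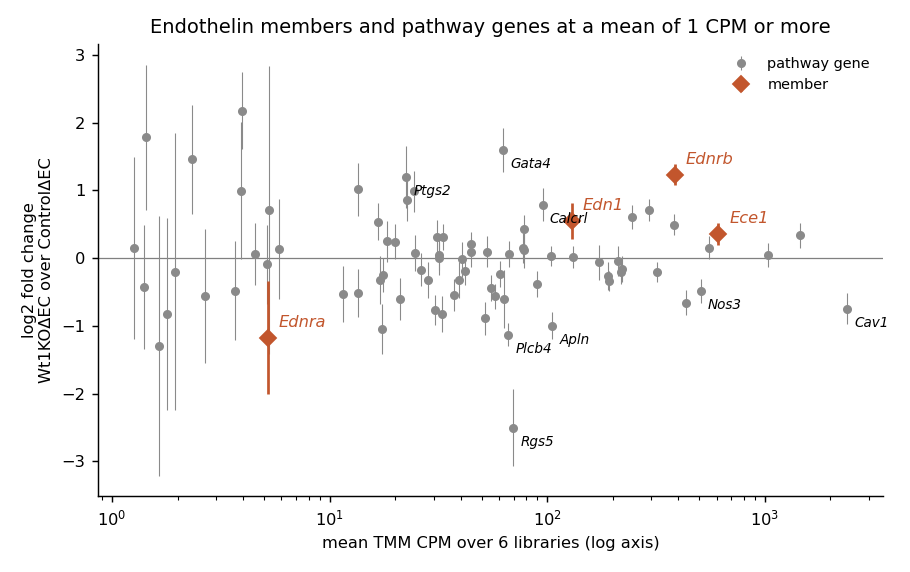
Log2 fold change (vertical axis, Wt1KOΔEC over ControlΔEC, bars for the standard error) against the mean TMM CPM of 6 libraries (log axis) for pathway genes in grey and endothelin genes in orange, at a mean of 1 CPM or more. *Ednrb* stands at 1.23, *Rgs5* at -2.50 and *Gata4* at 1.597, and no grey gene passed the adjusted threshold in edgeR.

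Ligand supply was covered by the convertases and by transcription factors known on the *Edn1* promoter. Of 10 tested convertases and degrading peptidases none reached an unadjusted p-value under 0.05. *Ctsa*, a carboxypeptidase gene, was at 209 ± 41.0 and 173 ± 31.8 CPM, *Pcsk5*, a proprotein convertase gene, at 76.6 ± 44.5 and 50.5 ± 23.9 CPM, and *Cma1*, the mast cell chymase gene, at 4.02 ± 4.10 and 6.54 ± 11.3 CPM. Of 13 transcription factors, *Gata4* was at 30.96 ± 16.8 and 93.8 ± 5.40 CPM with a log2 fold change of 1.597 ± 0.33 (SE) and an edgeR adjusted p-value of 0.120. The hypoxia-inducible factor gene *Epas1* was at 530.4 ± 65.7 and 336 ± 62.8 CPM, and the AP-1 subunit gene *Jun* at 316 ± 39.2 and 444 ± 39.9 CPM. Neither was called by edgeR. Of the 13 factors, DESeq2 called 2 higher, *Gata4* (adjusted p = 0.000204) among them, and 2 lower, *Epas1* (adjusted p = 0.0109) among them.

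Other vasoactive peptide systems and the jaw program of the A receptor also gave no call by edgeR. Of 15 tested genes of like peptide systems, 5 were higher and 2 lower at an unadjusted p-value under 0.05. *Ramp2*, a partner of the adrenomedullin receptor, was at 195 ± 38.7 and 296 ± 22.7 CPM, the apelin receptor gene *Aplnr* at 233 ± 24.9 and 209 ± 50.3 CPM, and the natriuretic clearance receptor gene *Npr3* at 8.96 ± 2.17 and 18.1 ± 8.12 CPM. DESeq2 called 2 of the 15 higher, *Ramp2* (adjusted p = 0.0253) and the natriuretic peptide gene *Nppa* (adjusted p = 0.0129). It called 1 lower, the apelin gene *Apln* (adjusted p = 0.000417), at 140 ± 27.9 and 70.3 ± 11.8 CPM. Of 8 neural crest target genes 3 were tested, led by *Mef2c* at 214 ± 22.2 and 169 ± 6.74 CPM and *Hand2* at 1.61 ± 0.836 and 1.20 ± 0.416 CPM.

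Genes whose log2 CPM followed each member most closely across the 6 libraries were ranked by Pearson's r among all genes with a mean of at least 10 CPM, as a description with no test, since the points share libraries and genotype. For *Ednrb* they were *Il27ra* (r = 0.996), *Actr3-ps* (0.995), a pseudogene whose reads cannot be told apart from those of its parent gene with confidence, and *Tmem258* (0.995). For *Edn1* they were *Hspa1b*, an inducible heat shock gene, *Dynll1* and *Nol7*, with r from 0.990 to 0.994. *Hspa1b* was at 112, 13.1 and 140.0 CPM in ControlΔEC and 235, 194 and 347 CPM in Wt1KOΔEC, with the same low library, ControlΔEC replicate 2, as *Edn1*. For *Ednra* they were *Fhl2*, *Cep43* and *Ss18* (r from 0.988 to 0.997), and for *Ece1* they were the EC genes *Mmrn2* and *Selp* with *Abhd16a* (r from 0.987 to 0.989). For *Edn3* they were *Klhdc2*, *Rab8b* and *Copg2* (r from 0.973 to 0.975), and for *Ece2* they were *Cyb5b*, *Denr* and *Rabl6* (r from 0.958 to 0.992), both resting on very low counts. The cardiomyocyte and erythroid sums, led by *Myh7* and *Hba-a1*, overlapped between the genotypes. The macrophage list of 8 genes, led by *Csf1r*, summed to 427, 889 and 299 CPM in ControlΔEC and to 299.8, 301 and 229.7 CPM in Wt1KOΔEC, which barely overlapped. All 8 macrophage genes had a negative log2 fold change, 4 at an unadjusted p-value under 0.05, with 0 called by edgeR and 2 by DESeq2. Over all genes 7.12% were lower at an unadjusted edgeR p-value under 0.05, and DESeq2 called 2.02% lower.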

How the data were processed

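RNA-Seq libraries of 3 ControlΔEC and 3 Wt1KOΔEC samples were analysed. The authors sorted GFP-positive cells, prepared SMART-seq2 libraries, aligned reads with STAR 2.7.8a and quantified genes with RSEM 1.3.0, and the deposited values are expected counts per gene as whole numbers, without normalization. The paper's methods give GRCm39 and the submitters' processing notes list GRCm38. The authors' own test used DESeq2.

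Genotype and replicate came from the labels. The members and all gene lists were chosen with earlier results of these data known. edgeR 4.0.16 in R 4.3.3 was run on the 16296 genes that reached 10 counts in 2 or more libraries (TMM, quasi-likelihood F test, Benjamini-Hochberg adjustment). Calls required an adjusted p-value below 0.05 and a log2 fold change beyond 0.58 in size. DESeq2 1.42.0 and limma 3.58.1 (voom), other normalizations and filters, the replicate number as a block and leaving out each library were alternatives. Standard errors were obtained by dividing each log2 fold change by the root of F. Positions and exonic lengths came from GENCODE vM39 on GRCm39, which held 54749 of 55416 gene IDs, and promoters from RefSeq. Fits were tested on simulated data.

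Named genes were all members, *Wt1* and *Edn2*; of each pathway list the called genes, the 2 most abundant and the one with the largest fold change at a mean of at least 5 CPM; of each marker list the most abundant and the called genes; and the 3 genes most correlated with each member. *Nos3*, *Sox10*, *Foxd3*, *Tyrp1*, *Mlana*, *Dct*, *Myh11*, *Pdgfrb*, *Cspg4*, *Nppa*, *Apln*, *Ccl21a*, *Upk3b* and *Msln* were added after their values were seen.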

Additional observations from a re-analysis of the deposited data

How the results depend on the processing

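The log2 fold change of *Ednrb* lay between 1.08 and 1.298 under all 16 alternatives and kept its call in 11 of them. With the replicate number as a block it was 1.24 (edgeR adjusted p = 0.0681), and with single libraries left out it ranged from 1.13 to 1.298. The number of endothelin genes called was 0 under the block and 0 to 1 with a library left out. That of *Edn3* turned to 0.37 without ControlΔEC replicate 1 and ranged from -2.62 to 0.37 over the left-out libraries. The other 4 endothelin genes kept their direction and stayed uncalled. Over all genes, 12 calls became 599 with DESeq2 on the same genes, 296 without a filter, 113 with 10 counts required in every library, 5 under the block and 2 to 37 with a library left out. For pathway genes, 0 calls became 10 with DESeq2, 1 with library size only, 5 without a filter, 4 with 10 counts in every library and 0 to 4 with a library left out, the 4 being reached without ControlΔEC replicate 2. For markers of other cells, 2 calls became 20, 1, 14 and 7 in the same order, 1 under the block and 1 to 3 with a library left out. The cause of these shifts was not tested. Per CPM instead of per kilobase, *Ednrb* made up 97.2% of the receptor level in ControlΔEC and 99.4% in Wt1KOΔEC. In Wt1KOΔEC, *Ece1* was rank 1 and *Ednrb* rank 2 in CPM and also per canonical transcript length, a choice made after seeing the data. Labels tie no replicate number to a litter, and deviations of same-numbered libraries correlated at 0.0675 to 0.212, so the numbers were not taken as pairs, although 6 of 6 libraries correlated best with the library of their own number. *Edn3*, *Ece2* and *Edn2* had libraries at 0 counts, and these did not follow depth: *Edn3* had 136 and 0 counts in ControlΔEC replicates 1 and 2, of 44779020 and 44736496 counts in all.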
